A study of Mus musculus with 6 samples.

Results

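Interferon-stimulated genes are the genes that cells switch on when interferon binds its receptor. A list of 38 of them, picked by gene symbol with no threshold on a measured value but with earlier results of these data known, was followed in sorted endothelial cells of normal mouse brain and of glioma. All 38 symbols were present among the 24421 genes of the deposited files. The 9 guanylate-binding proteins (GBP) and immunity-related GTPases (IRG) are described apart from the other 29 members. Normal endothelial cells came from the brain of C57BL/6 mice without tumor, and glioma endothelial cells from congenic B6 mice 3 weeks after an orthotopic injection of GL26l glioma cells. Each group held 3 libraries of total RNA, made with the Lexogen QuantSeq kit, which reads the 3′ end of transcripts. The labels give no transgene or drug in either group, and they leave out age, sex, sort markers and the number of animals per library. The p-values below therefore measure the spread between these libraries, which may be technical.

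Type I interferons signal through the receptor chains Ifnar1 and Ifnar2 and the kinases Jak1 and Tyk2. These activate STAT factors, Stat2 among them, which bind Irf9 and occupy the interferon-stimulated response element (ISRE) in promoters. Interferon gamma signals through Ifngr1, Ifngr2, Jak1 and Jak2, and its STAT dimers bind the gamma-activated site (GAS). Brain endothelium carries both kinds of receptor. Its interferon response is known to restrict viruses and to guide leukocytes, and its response to type I interferon to tighten the barrier.

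Values are the deposited log2(x + 1) levels, one per gene and library. Because each read marks a 3′ end, the levels of different genes can be set side by side without correction for length. A value of 0 means that a gene is listed at 0. The lowest value above 0 differed between libraries, with 0.22 the smallest (normal replicate 3) and 7.43 the largest (normal replicate 1), so a gene missed in normal replicate 1 lies at least 7.43 below any gene seen there. Genes above 0 numbered 7446 to 13072 in normal and 10013 to 13108 in glioma libraries, and sequencing depth is unknown. All 10 endothelial markers were above 0 in each library, and together they made up 1.8% to 2.44% of the summed back-transformed values of a normal library and 0.898% to 1.73% of a glioma library. Column headers end in a 4-digit number that replicates 2 and 3 have in common within each group but not across groups. Replicate 1 of each group carries a number of its own. What the number marks is not given, so it cannot be told apart from the group, nor from what sets replicate 1 apart.

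No interferon-stimulated gene passed the test between groups, and the list as a whole was spread on both sides of 0. In bulk libraries such as these, fewer cells of a type and less RNA per cell cannot be told apart. Of 38 members, 24 were above 0 in all 6 libraries, 13 in some, and Mx1 in none, and 37 could be tested. With limma, fitted across 11862 genes and adjusted by Benjamini-Hochberg, 0 of 37 members were called, against 0.0% of all genes. An unadjusted p under 0.05 was reached by 0 of 37 members and by 4.29% of all genes. The difference, glioma minus normal, was above 0 for 20 members and below 0 for 17, with a median of 0.06 beside 0.05 over all genes tested. For 2 members (5.41%), Stat2 and Ifitm2, each glioma library lay above each normal one, and for 1 (2.7%), Ifi35, each lay below. Over all genes these shares were 6.91% and 6.37%, so the members' counts were no larger than the background. GENCODE places Irf7, Adar, Parp9 and Rtp4 over a gene on the opposite strand (Phrf1, Chrnb2, Dtx3l and Masp1) and Irf9 over Rnf31. Ifi35, Irf1, Usp18 and Gbp2 lie over Gm11626, Gm17334, Gm44148 and Mir6381 on the opposite strand. Ifitm2, Parp14 and Gbp7 lie over Gm45717, Gm49730 and Gm43802 on the same strand. Strand use and the counting step are not stated, so it is not known whether these members share reads with the partner.

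**Figure D1:**
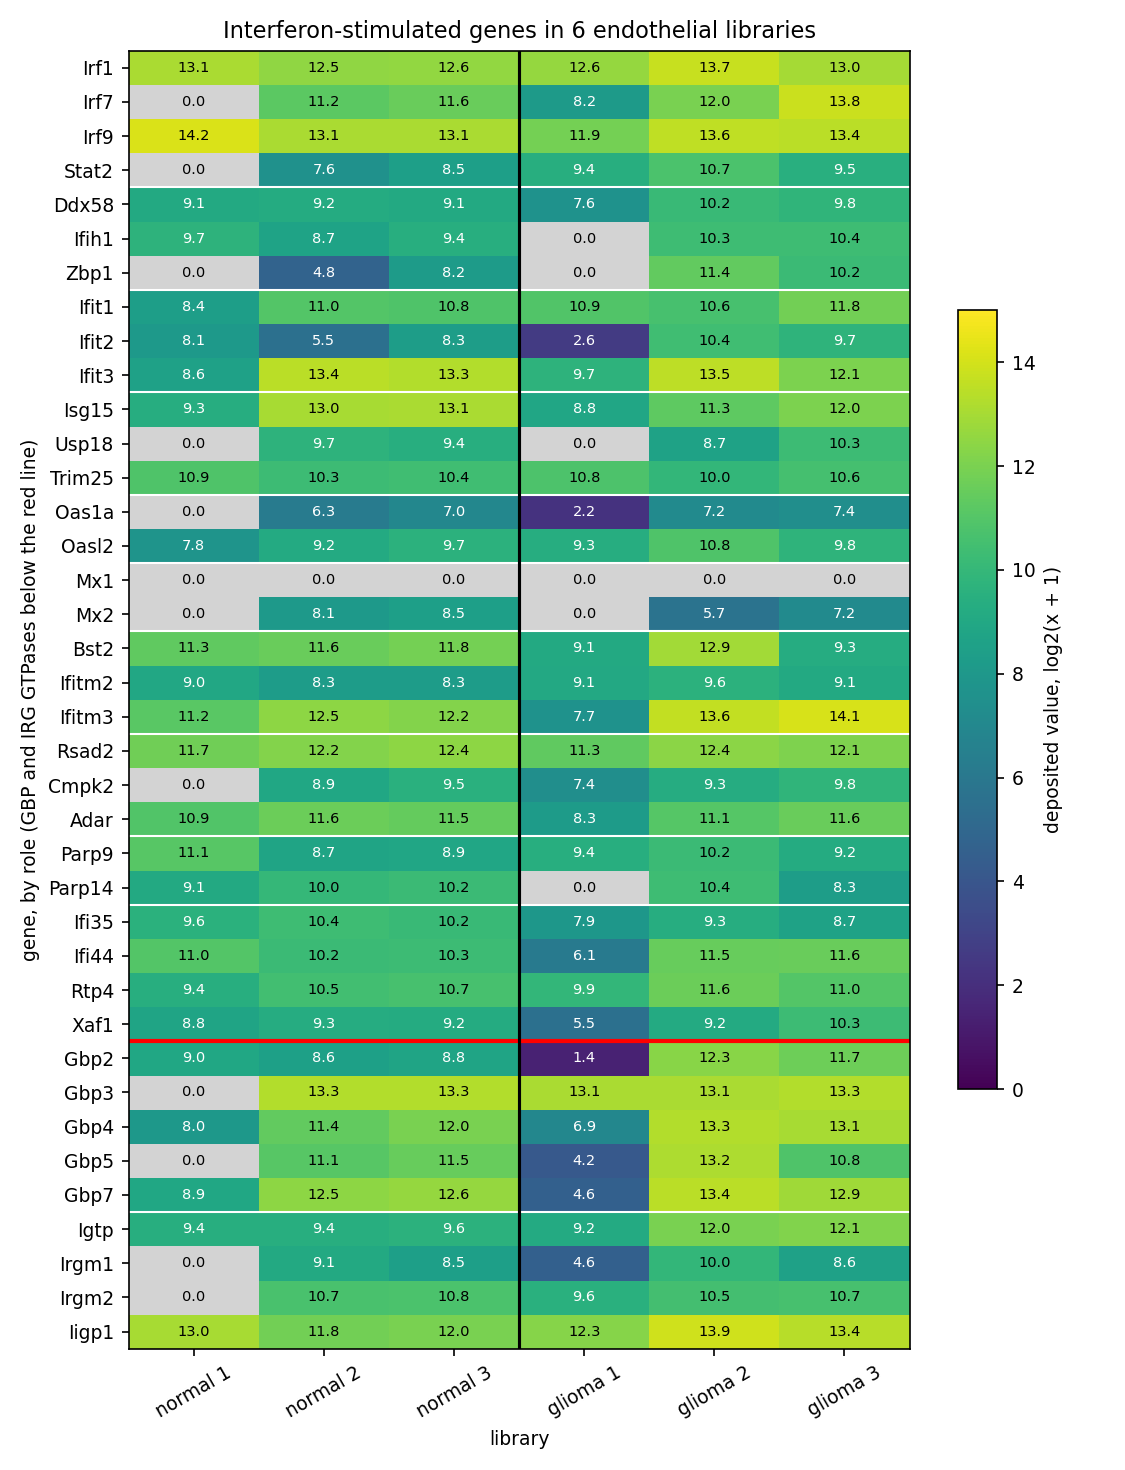
Deposited log2(x + 1) values of the 38 interferon-stimulated genes (rows, grouped by role, with the GBP and IRG GTPases under the red line) in the 6 libraries (columns, normal left of the black line), with values listed at 0 in grey. Normal replicate 1 has 12 grey cells and glioma replicate 1 has 6, while the other 4 libraries have a grey cell only for Mx1.

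The glioma libraries differed among themselves across most of the list. Glioma replicate 1 held the lowest or tied lowest value of the glioma group for 34 of 37 members (91.9%), against 37.2% of all genes tested. It was the highest of the 6 libraries for 0 members, while glioma replicate 2 was the highest for 17 and glioma replicate 3 for 10. In the normal group, replicate 1 was lowest or tied for 26 of 37 members (70.3%), against 59.4% of all genes. These are the libraries whose header number is not shared. The list had a median level of 8.95, 10.26 and 10.23 in the normal libraries (replicates 1 to 3 in order, as in all values below) and of 8.04, 10.95 and 10.61 in the glioma libraries. The library with the lowest median was thus a glioma library, and so were the pair with the highest.

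Set against the range of the normal libraries, the glioma libraries went in opposite directions. Glioma replicate 2 lay above all 3 normal libraries for 23 of 37 members (62.2%) and below all 3 for 2 (5.41%). Glioma replicate 3 lay above for 21 (56.8%) and below for 3 (8.11%). Glioma replicate 1 lay above for 2 (5.41%) and below for 17 (45.9%). Over all genes tested the shares above were 28.0%, 27.8% and 31.1% in glioma replicates 1, 2 and 3, and the shares below 22.1%, 19.5% and 24.2%. The members' shares were therefore above this background upward in glioma replicates 2 and 3 and downward in glioma replicate 1.

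**Figure D2:**
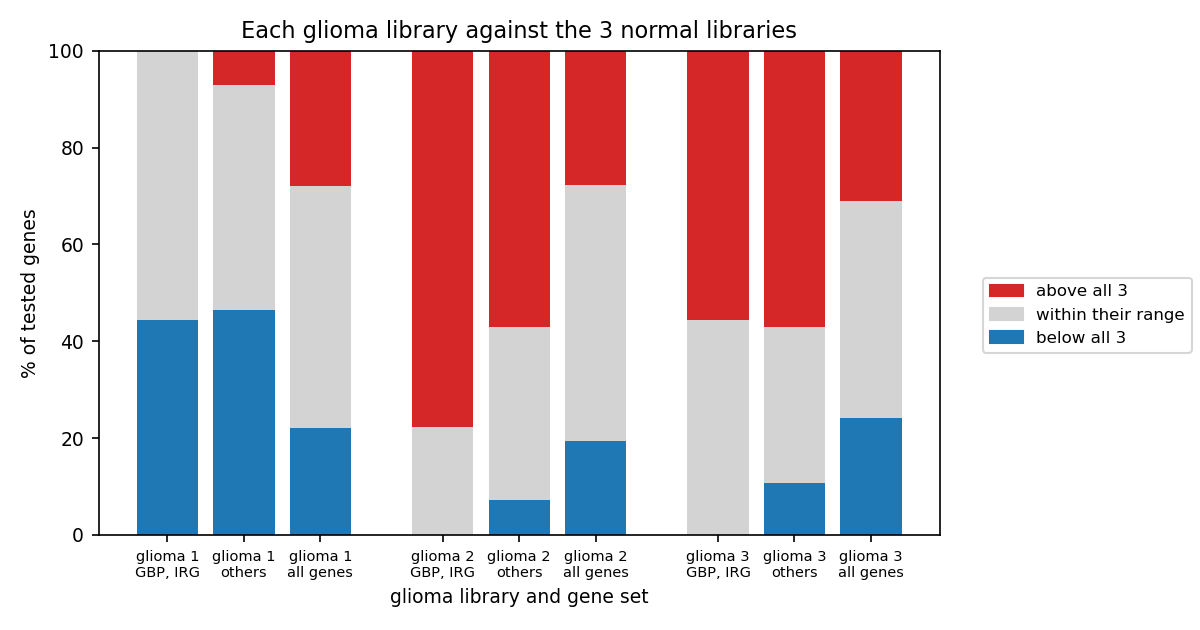
Share of tested genes (y axis, percent) that lay above all 3 normal libraries (red), within their range (grey) or below all 3 (blue), for each glioma library and for the 9 GBP and IRG GTPases, the 28 other tested interferon-stimulated genes and all 11862 genes tested. The red share of both gene sets exceeds that of all genes in glioma replicates 2 and 3, and their blue share exceeds it in glioma replicate 1.

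Leaving out a library changed these counts accordingly, though no setting led to a called member. Without glioma replicate 1, the remaining glioma libraries lay wholly above the normal ones for 17 of 37 members (45.9%) and wholly below for 1 (2.7%), beside 15.0% and 12.1% of all genes. The median difference was then 1.15, beside 0.1 over all genes, and 6 of 37 members had an unadjusted p under 0.05, beside 5.74% of all genes, with the smallest limma adjusted p at 0.775. Without normal replicate 1 the counts were 5 higher (13.5%) and 4 lower (10.8%), beside 14.7% and 20.7% of all genes, and the median was -0.39 beside -0.35. Without glioma replicate 2 there were 2 higher members, beside 11.5% of all genes, and 3 lower (Bst2, Parp14 and Ifi35), beside 10.7%. The counts were 2 and 1 without normal replicate 2 (7.76% and 7.22% of all genes), 3 and 1 without normal replicate 3 (8.65% and 7.55%), and 2 and 1 without glioma replicate 3 (12.4% and 10.0%).

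**Figure D3:**
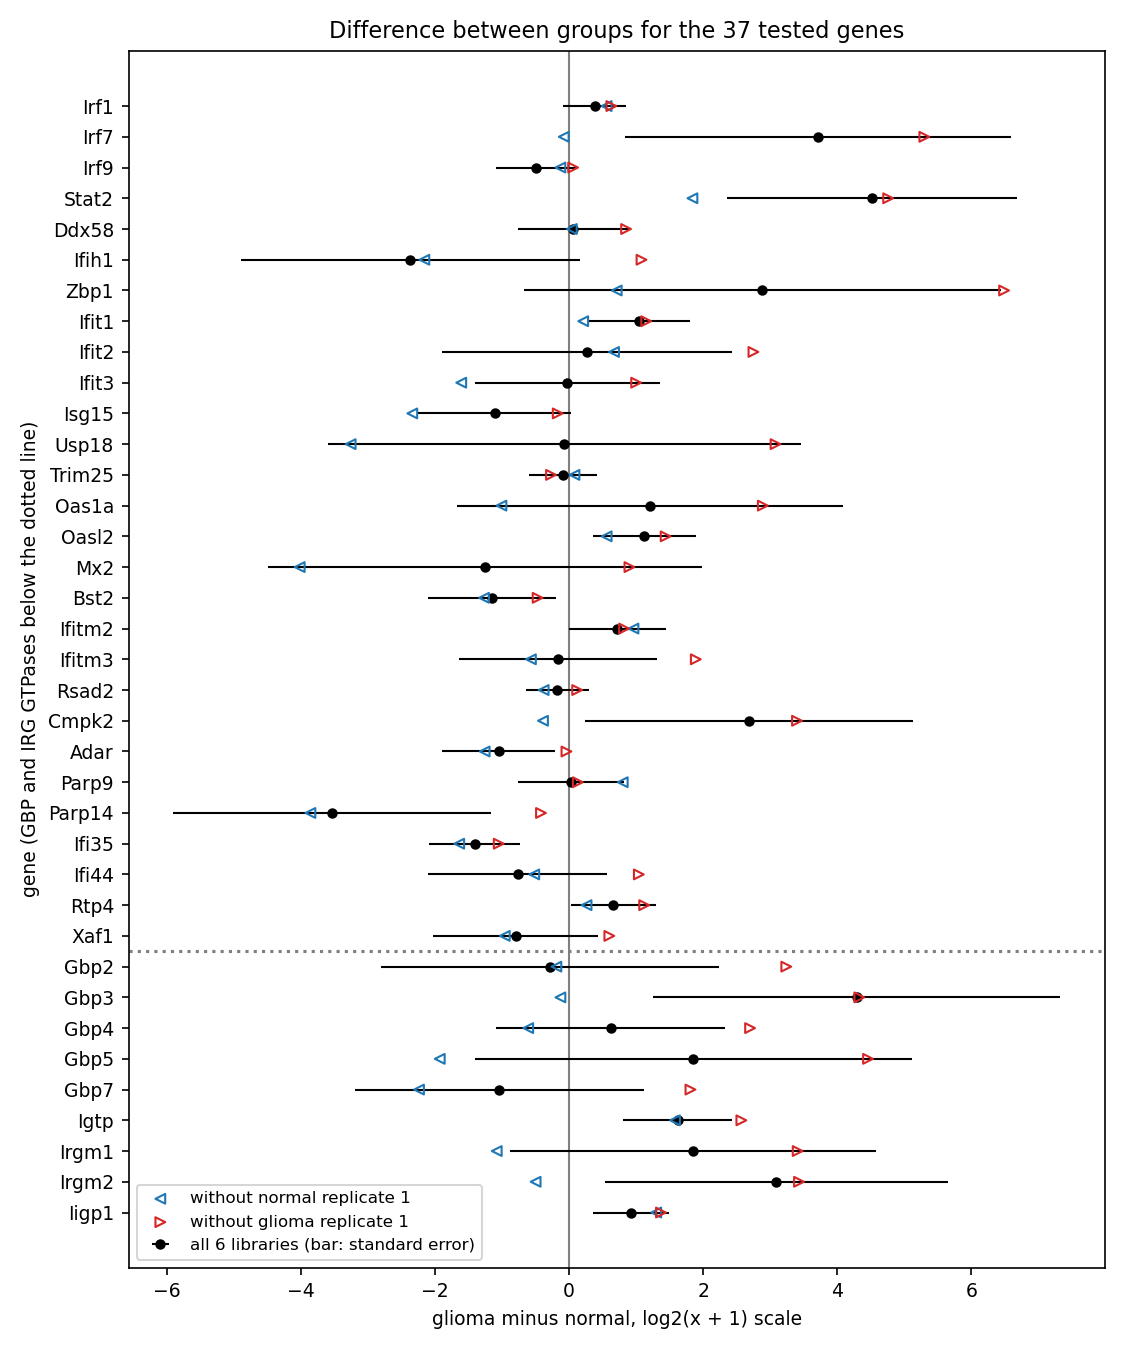
Glioma minus normal difference (x axis, log2(x + 1) scale) of the 37 tested genes (rows), over all libraries with its standard error (black), without normal replicate 1 (blue) and without glioma replicate 1 (red). For the GTPases under the dotted line all 9 red marks lie above 0, while 7 of the 9 blue marks lie below it.

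Signalling genes included the member whose difference had the smallest p. Stat2, which carries the type I interferon signal to the nucleus (chromosome 10, 128270559 to 128292849), was at 0, 7.59 and 8.47 in normal endothelium and 9.38, 10.73 and 9.48 in glioma endothelium. The groups did not overlap, and the lowest value was the 0 of normal replicate 1. The difference was 4.52 (SE 2.16, limma adjusted p = 0.875), and it was 1.84 without normal replicate 1. Irf7, the amplifier of type I interferon production, was at 0, 11.22 and 11.57 in normal endothelium and 8.17, 12 and 13.79 in glioma endothelium. Its difference of 3.72 (SE 2.88, limma adjusted p = 0.875) became -0.08 without normal replicate 1. Irf9, the DNA-binding partner of Stat2, was at 14.17, 13.10 and 13.09 in normal endothelium and 11.88, 13.58 and 13.45 in glioma endothelium. Irf1, a factor induced by interferon gamma, was at 13.07, 12.50 and 12.58 (12.72 ± 0.31, SD, n = 3) and at 12.60, 13.73 and 12.97 (13.10 ± 0.57). Both were high in each library, and their groups overlapped.

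The promoter window of Stat2 is printed because this gene and Ifitm2 were the members whose glioma libraries lay wholly higher, and that of Ifi35 because it lay wholly lower. Windows run from 250 bases before to 50 bases after the transcription start, 5′ to 3′ along the gene, from RefSeq on mouse build GRCm38. Capitals mark matches on either strand to the ISRE core, which is a pair of GAAA blocks with 2 free bases between them (TTTC blocks on the other strand), and to the GAS core TTCNNNGAA, which reads the same on both strands. Overlapping matches were counted. Stat2 lies at chr10:128270248-128270547 (plus strand), Ifitm2 at chr7:140955912-140956211 (minus strand) and Ifi35 at chr11:101448162-101448461 (plus strand).
Stat2: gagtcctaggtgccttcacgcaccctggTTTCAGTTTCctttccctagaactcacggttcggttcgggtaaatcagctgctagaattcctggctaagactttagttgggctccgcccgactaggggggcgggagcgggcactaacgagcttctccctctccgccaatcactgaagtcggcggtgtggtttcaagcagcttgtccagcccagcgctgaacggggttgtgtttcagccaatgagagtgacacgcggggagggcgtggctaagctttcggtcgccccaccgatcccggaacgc
Ifitm2: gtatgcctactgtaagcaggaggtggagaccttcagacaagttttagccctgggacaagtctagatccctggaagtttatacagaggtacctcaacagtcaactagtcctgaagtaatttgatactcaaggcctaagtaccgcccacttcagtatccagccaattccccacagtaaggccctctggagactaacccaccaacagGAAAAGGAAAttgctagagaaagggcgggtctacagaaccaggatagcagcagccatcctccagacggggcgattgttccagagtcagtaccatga
Ifi35: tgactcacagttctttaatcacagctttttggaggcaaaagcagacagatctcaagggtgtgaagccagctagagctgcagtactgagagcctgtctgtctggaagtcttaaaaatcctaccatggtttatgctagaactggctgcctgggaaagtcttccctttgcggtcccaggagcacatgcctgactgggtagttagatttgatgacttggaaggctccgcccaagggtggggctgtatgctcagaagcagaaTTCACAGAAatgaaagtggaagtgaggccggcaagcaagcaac
Stat2 and Ifitm2 each hold 1 ISRE core match, and Ifi35 holds 1 GAS core match just after its start. A match is a description of letters, not a measured binding site.

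The cytoplasmic sensors of viral nucleic acid split by library. Ifih1, which encodes MDA5 and detects long double-stranded RNA, was at 9.71, 8.72 and 9.39 in normal libraries, at 0 in glioma replicate 1 and at 10.34 and 10.36 in glioma replicates 2 and 3. Ddx58, which encodes RIG-I, was at 9.10, 9.24 and 9.11 in normal endothelium and 7.64, 10.15 and 9.84 in glioma endothelium. Both genes thus lay below all normal libraries in glioma replicate 1 and above them in the other glioma libraries. Zbp1, a sensor of Z-form nucleic acid that can start cell death, was at 0, 4.77 and 8.24 in normal endothelium and 0, 11.41 and 10.25 in glioma endothelium.

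The IFIT proteins, which bind foreign RNA and block its translation, are encoded within 99.3 kb of chromosome 19. Ifit1 was at 8.43, 11.00 and 10.84 in normal endothelium and 10.92, 10.64 and 11.83 in glioma endothelium, a difference of 1.04 (SE 0.76, limma adjusted p = 0.875). Ifit3 was among the highest members in 2 normal libraries, at 13.45 and 13.26, and at 8.61 in normal replicate 1. Glioma libraries held it at 9.67, 13.49 and 12.06. Its groups overlapped. Ifit2 was at 8.12, 5.51 and 8.33 in normal endothelium and 2.62, 10.40 and 9.74 in glioma endothelium. Reads of Ifit3 and its near-identical neighbour Ifit3b can be split in ways the files do not show.

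For the ubiquitin-like protein Isg15 and its regulators, 0 of 3 differences were above 0 over all libraries. They were -1.11 for Isg15, -0.07 for Usp18 and -0.09 for Trim25. Isg15, which is attached to newly made proteins during infection, was at 9.35, 13.02 and 13.11 in normal endothelium and 8.85, 11.30 and 12.02 in glioma endothelium. The Isg15 groups overlapped over all libraries. Against normal replicates 2 and 3 alone, all 3 glioma libraries lay lower, which also held for 20.7% of all genes. The Isg15 difference was then -2.34 and did not pass the test. Usp18, which removes Isg15 and dampens receptor signalling, was at 0, 9.70 and 9.43 in normal endothelium and 0, 8.65 and 10.26 in glioma endothelium. Trim25, a ligase that activates RIG-I, was at 10.88, 10.31 and 10.40 (10.53 ± 0.30, SD, n = 3) and at 10.79, 9.96 and 10.56 (10.44 ± 0.43). Its groups overlapped.

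Effectors that act on nucleotides and RNA were mixed. Rsad2, or viperin, which makes a chain-terminating nucleotide, was at 11.74, 12.23 and 12.43 (12.13 ± 0.36, SD, n = 3) and at 11.35, 12.42 and 12.10 (11.96 ± 0.55), so the groups overlapped. Its chromosome 12 neighbour Cmpk2, a mitochondrial nucleotide kinase, was at 0, 8.91 and 9.54 and at 7.40, 9.26 and 9.83. The pair, whose genes lie within 37.1 kb, thus differed in how evenly the libraries held them. Adar, the RNA-editing enzyme that keeps self RNA from the sensors, was at 10.92, 11.64 and 11.48 and at 8.26, 11.06 and 11.56, and its difference was -1.05 (SE 0.84, limma adjusted p = 0.875). The groups of both enzymes overlapped, with the lowest Adar value in glioma replicate 1. The oligoadenylate synthetase Oas1a, which activates the RNA-cutting RNase L, was at 0, 6.26 and 6.97 and at 2.22, 7.17 and 7.43. Oasl2, a related protein, was at 7.75, 9.17 and 9.66 and at 9.33, 10.84 and 9.77, with a difference of 1.12 (SE 0.77, limma adjusted p = 0.875).

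Among proteins that stop viruses at membranes, the glioma libraries were close together for Ifitm2 and far apart for Ifitm3 and Bst2. Ifitm2, which blocks viral fusion in endosomes (chromosome 7, 140954837 to 140955987), was at 9.02, 8.29 and 8.29 in normal endothelium and 9.06, 9.61 and 9.10 in glioma endothelium. The groups did not overlap, but the lowest glioma value and the highest normal value were close. The difference was 0.72 (SE 0.72, limma adjusted p = 0.875). Its neighbour Ifitm3 was at 11.15, 12.48 and 12.21 in normal, 7.66 in glioma replicate 1 and 13.60 and 14.07 in glioma replicates 2 and 3, where it was the highest member in glioma replicate 3. Bst2, or tetherin, which holds virions at the cell surface, was at 11.34, 11.59 and 11.85 in normal endothelium and 9.10, 12.93 and 9.31 in glioma endothelium. Ifitm2 and Ifitm3 are close paralogs, so the counting step could share reads between them.

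Mx proteins are dynamin-like GTPases that trap viral particles. Mx1, which is defective in C57BL/6 and most other laboratory strains, was listed at 0 in all 6 libraries. Mx2, which GENCODE lists as a polymorphic pseudogene, was at 0, 8.13 and 8.48 in normal endothelium and 0, 5.71 and 7.16 in glioma endothelium. Glioma replicates 2 and 3 lay below normal replicates 2 and 3 for this gene.

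The remaining members outside the GTPases ranged from a difference of -3.54 to 0.66. Ifi35, an interferon-induced leucine zipper protein (chromosome 11, 101448407 to 101458698), was at 9.58, 10.36 and 10.19 in normal endothelium and 7.92, 9.33 and 8.65 in glioma endothelium. It was the only member with all glioma libraries below all normal ones, and its difference was -1.41 (SE 0.68, limma adjusted p = 0.875). Parp14, an ADP-ribosyltransferase, was at 9.14, 9.99 and 10.20 in normal endothelium and 0, 10.37 and 8.35 in glioma endothelium, and its difference of -3.54 (SE 2.37, limma adjusted p = 0.875) was -0.42 without glioma replicate 1. Parp9, which forms a complex with Dtx3l, was at 11.10, 8.74 and 8.87 and at 9.42, 10.20 and 9.21. Its difference was 0.03, and 0.80 without normal replicate 1, which was its highest library. Ifi44, a GTP-binding antiviral protein, was at 11.01, 10.22 and 10.27 and at 6.11, 11.51 and 11.57. Xaf1, which promotes cell death, was at 8.77, 9.29 and 9.25 and at 5.51, 9.15 and 10.26. Rtp4, a receptor transporter that also restrains viruses, was at 9.38, 10.47 and 10.66 and at 9.91, 11.61 and 10.97. The differences of Ifi44 and Xaf1 were -0.77 and -0.80, and became 1.04 and 0.60 without glioma replicate 1, while that of Rtp4 was 0.66 and 1.12.

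The GBP and IRG GTPases are large interferon-induced enzymes that attack the vacuoles and membranes around intracellular pathogens, and interferon gamma is their strongest inducer. Their median difference was 1.62 over 9 tested members, beside -0.05 over the other 28 tested members and 0.05 over all genes, and 7 of 9 were above 0. None of the 9 had groups that did not overlap, while over all genes 6.91% were wholly higher and 6.37% wholly lower. The median turned to -0.50 without normal replicate 1, where 4 of the 9 were listed at 0, while that of all genes was then -0.35. It was 3.24 without glioma replicate 1, where all 9 differences were above 0 and 5 of 9 (55.6%) lay wholly higher, beside 15.0% of all genes. Their median level was 8.01, 11.13 and 11.53 in normal endothelium and 6.93, 13.09 and 12.14 in glioma endothelium.

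Gbp2, Gbp3, Gbp5 and Gbp7 lie together in 144.0 kb of chromosome 3 (142493978 to 142638008), yet their levels did not move as 1 block. Gbp3 was at 0 in normal replicate 1 and at 13.26 and 13.29 in the other normal libraries, beside 13.07, 13.09 and 13.26 in glioma endothelium. Its difference of 4.29 (SE 3.04, limma adjusted p = 0.875) was -0.13 without normal replicate 1. Gbp2 was at 8.96, 8.55 and 8.77 in normal, 1.42 in glioma replicate 1, and 12.33 and 11.67 in glioma replicates 2 and 3. The latter pair lay above each normal library, by 3.24 on average. Gbp7 was at 8.93, 12.48 and 12.61 in normal endothelium and 4.60, 13.42 and 12.88 in glioma endothelium, and Gbp5 at 0, 11.13 and 11.53 and at 4.17, 13.18 and 10.84. Gbp4, which GENCODE places on chromosome 5 overlapping Gbp8 and Gbp9 on the same strand, was at 8.01, 11.41 and 11.99 and at 6.93, 13.29 and 13.05. In glioma replicate 1, Gbp3 was thus near its level in the other libraries while Gbp2, Gbp4, Gbp5 and Gbp7 were between 1.42 and 6.93. Reads shared between these paralogs may have been assigned to one of them, which the files do not show.

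Among the IRG proteins, 4 of 4 differences were above 0. Igtp, also called Irgm3, was at 9.41, 9.40 and 9.64 in normal endothelium and 9.18, 11.97 and 12.14 in glioma endothelium, a difference of 1.62 (SE 0.81, limma adjusted p = 0.875). Its normal libraries were close together (9.48 ± 0.14, SD, n = 3), and the overlap came from glioma replicate 1. Iigp1, an effector that coats parasite vacuoles, was high in each library, at 13.01, 11.81 and 11.96 and at 12.29, 13.89 and 13.38, with a difference of 0.92 (SE 0.57, limma adjusted p = 0.875). Irgm1 and Irgm2, regulators that keep the effectors off the cell's own membranes, were at 0 in normal replicate 1. The other normal libraries held Irgm1 at 9.11 and 8.49 and Irgm2 at 10.71 and 10.78. Glioma endothelium held Irgm1 at 4.60, 9.96 and 8.60 and Irgm2 at 9.55, 10.54 and 10.66, so both groups overlapped. Their differences were 1.85 (SE 2.73, limma adjusted p = 0.898) and 3.09 (SE 2.56, adjusted p = 0.875), and -1.08 and -0.50 without normal replicate 1. Igtp and Irgm2 overlap on the same strand of chromosome 11 in GENCODE (58199556 to 58222782), but their annotated 3′ ends lie apart, at 58207591 and 58222782. How reads in the shared stretch were counted is not given.

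Promoters of the members carried interferon motifs more often than the table's promoters as a whole, with no test made. The RefSeq table of windows held 29 of 38 members, with 35 windows. Gbp4, Iigp1, Mx1, Mx2, Parp14, Parp9, Rtp4, Usp18 and Zbp1 were not matched. An ISRE core stood in the windows of 18 of 29 members (62.1%), against 3.99% of 27025 genes in the table, and a GAS core in 11 of 29 (37.9%), against 9.55%. Both stood in 7 members (24.1%), against 0.54% of all genes. These were Bst2, Gbp5, Gbp7, Ifitm3, Igtp, Irgm2 and Oas1a. All 7 GBP and IRG genes with a window held an ISRE core, and 11 of the 22 other members did. The 27 ISRE core matches began between position -222 and position 32, counted from the transcription start, with a median of -59.

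The windows of Gbp2 and Gbp5 are printed because these neighbours differ in their motifs, that of Igtp because both motifs stand side by side in it, and that of Isg15 because its matches overlap in an unbroken row. Capitals mark the matches as above. Gbp2 lies at chr3:142620413-142620712 (plus strand), Gbp5 at chr3:142496684-142496983 (plus strand), Igtp at chr11:58199306-58199605 (plus strand) and Isg15 at chr4:156200769-156201068 (minus strand).
Gbp2: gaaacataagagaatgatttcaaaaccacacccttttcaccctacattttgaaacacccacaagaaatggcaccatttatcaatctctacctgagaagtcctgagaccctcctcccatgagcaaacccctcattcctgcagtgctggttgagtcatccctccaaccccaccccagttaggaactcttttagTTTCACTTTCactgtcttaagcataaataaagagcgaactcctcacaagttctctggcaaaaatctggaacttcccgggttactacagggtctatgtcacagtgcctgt
Gbp5: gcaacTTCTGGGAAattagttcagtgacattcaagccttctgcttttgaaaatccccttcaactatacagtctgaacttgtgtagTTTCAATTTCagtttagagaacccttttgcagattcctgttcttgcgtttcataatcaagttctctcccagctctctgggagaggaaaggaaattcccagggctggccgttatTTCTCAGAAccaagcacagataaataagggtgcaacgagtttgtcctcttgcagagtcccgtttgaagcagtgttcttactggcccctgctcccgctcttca
Igtp: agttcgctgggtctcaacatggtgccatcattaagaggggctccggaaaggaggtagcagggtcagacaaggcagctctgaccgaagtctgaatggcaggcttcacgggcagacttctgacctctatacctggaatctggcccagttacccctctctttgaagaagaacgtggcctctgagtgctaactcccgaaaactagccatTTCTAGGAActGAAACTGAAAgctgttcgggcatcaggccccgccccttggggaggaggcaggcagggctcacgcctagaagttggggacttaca
Isg15: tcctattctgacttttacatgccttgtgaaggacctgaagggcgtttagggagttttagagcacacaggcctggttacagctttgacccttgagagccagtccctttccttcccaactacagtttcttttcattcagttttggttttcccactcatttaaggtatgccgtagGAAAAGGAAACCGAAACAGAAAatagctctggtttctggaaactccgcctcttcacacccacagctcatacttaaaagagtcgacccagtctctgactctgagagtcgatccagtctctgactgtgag
Gbp2 holds 1 ISRE core at position -59 and no GAS core in this window, and Gbp5 holds an ISRE core at -165 and GAS cores at -245 and -52. In Igtp a GAS core at -45 is followed by an ISRE core at -34. Isg15 holds 3 overlapping ISRE cores at -78, -72 and -66. Over tested members with a window, the median difference was 0.39 for the 18 with an ISRE core and -0.09 for the 11 without, and without glioma replicate 1 the values were 1.85 and 0.63. Without normal replicate 1 they were -0.53 and -0.13, so the order of the pair of medians turned. The 18 include all 7 GBP and IRG genes with a window. The 11 others with an ISRE core had differences from -2.37 (Ifih1) to 4.52 (Stat2). Whether the higher median goes with the motif or with the GTPase family was not tested.

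**Figure D4:**
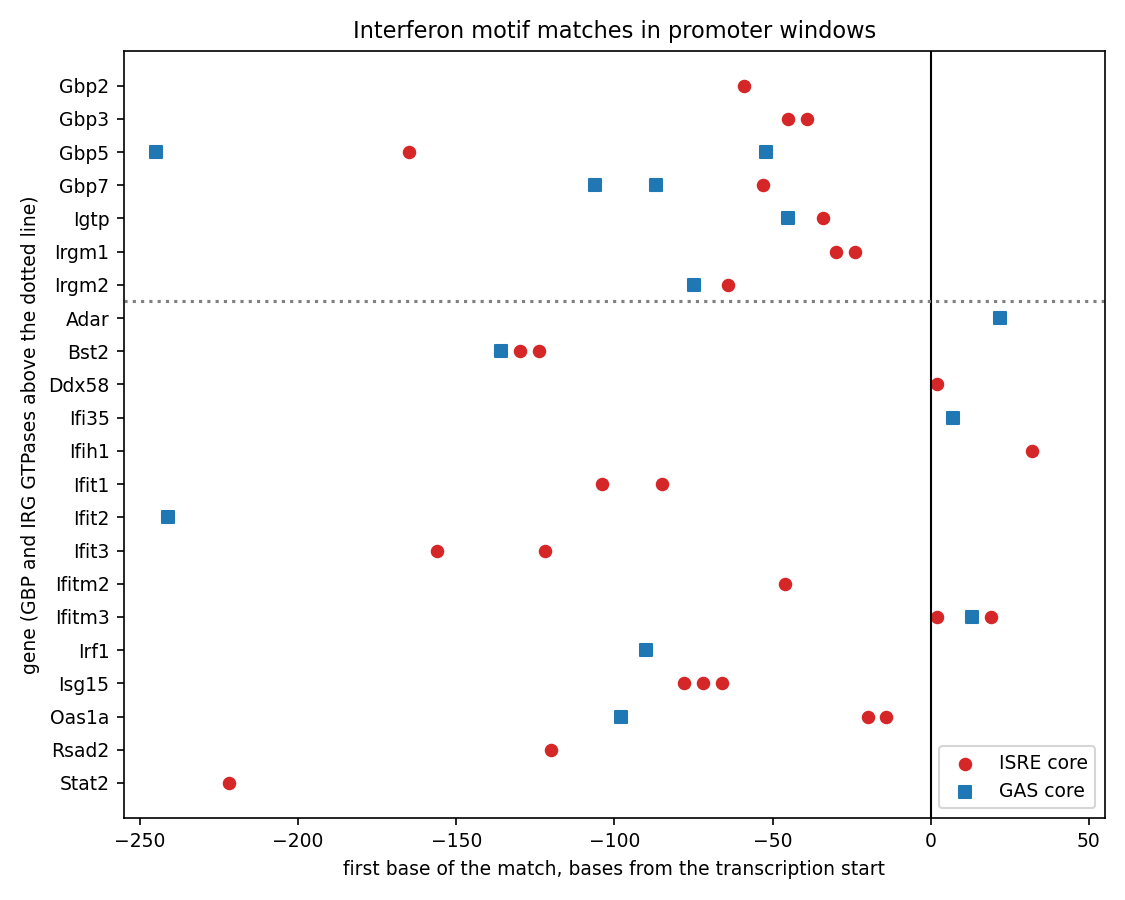
First base of each ISRE core (red circles) and GAS core (blue squares) match, in bases from the transcription start (x axis), for the members with a match (rows, GBP and IRG GTPases above the dotted line). Of the 27 ISRE core matches, 15 begin in the 100 bases before the start.

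Upstream of these genes, interferon itself was not seen. All 9 interferon ligand genes looked at, Ifnb1 and Ifng among them, were listed at 0 in the 6 libraries. Of 6 receptor genes 5 were tested, with 0 called, 0 wholly higher and 1 wholly lower, beside 6.91% and 6.37% of all genes. That 1 was Ifngr1, the ligand-binding chain for interferon gamma, at 11.20, 10.99 and 10.81 in normal endothelium and 10.71, 9.39 and 9.44 in glioma endothelium (difference -1.15, SE 0.56, limma adjusted p = 0.875). Ifnar1 was at 11.02, 12.99 and 13.07 and at 11.02, 10.80 and 9.66, with a difference of -1.86 (SE 0.68, limma adjusted p = 0.875). The Ifnar1 groups met at 11.02, the value of replicate 1 in both. Il10rb, shared by the lambda receptor, differed by -1.38, Ifnar2 by -0.59 and Ifngr2 by 1.68, while Ifnlr1 was above 0 in glioma replicate 1 alone, at 0.42.

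The kinases and STATs gave 0 called of 5 tested, with 0 wholly higher and 1 wholly lower, beside 6.91% and 6.37% of all genes. Tyk2, the Ifnar1-bound kinase, was wholly lower in glioma, at 10.24, 10.31 and 10.68 against 9.10, 9.09 and 7.35 (difference -1.89, SE 0.71, limma adjusted p = 0.875). Jak1 was at 10.79, 9.35 and 9.70 and at 10.67, 11.71 and 11.83, with a difference of 1.45 (SE 0.59, limma adjusted p = 0.875). Stat3 and Jak2 differed by -0.54 and -0.85.

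Other genes of the pathway gave the same picture of no call. Of 90 pathway genes outside the list, 76 were tested and 0 called by limma. Of the 76, 8 had an unadjusted limma p under 0.05, a larger share than the 4.29% of all genes. Wholly higher were 8, a larger share than the 6.91% of all genes, and wholly lower 3, a smaller share than the 6.37%. No test of these genes as a set was made. The median difference was 0.74, beside 0.05 over all genes. Leaving out normal replicate 1 gave -0.30 and leaving out glioma replicate 1 gave 1.86, beside -0.35 and 0.1 over all genes, and 0.23 and 0.03 without glioma replicates 2 and 3. Irf8, a factor of myeloid cells that interferon gamma also induces, was listed at 0 in normal libraries and at 6.75, 9.97 and 11.14 in glioma libraries. Cxcl11, a T cell attractant, was at 0, 0 and 2.22 and at 5.25, 10.37 and 9.61, and Epsti1 at 0 and at 3.56, 8.18 and 6.57. The other wholly higher genes were the DNA-sensing adaptor Tmem173 (STING), the feedback inhibitor Socs3, the phosphatase Ptpn2, and the interferon-induced Samhd1 and Herc6, with differences of 1.79, 3.72, 1.20, 0.73 and 3.68. The phosphatase Ptpn11 was wholly lower, by -1.02. Further GBP and IRG genes, 15 in all with 12 tested, had a median difference of 1.27, which was 0.20 without normal replicate 1, 3.96 without glioma replicate 1, 0.34 without glioma replicate 2 or 3, and 2.42 and 2.41 without normal replicates 2 and 3. Ifi47 among them was at 8.37, 11.54 and 11.75 and at 7.84, 13.79 and 13.84, again lowest in replicate 1 of each group.

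Markers of other cell types differed between the libraries that differed in interferon-stimulated genes, and their part in these results was not tested. Summed levels of the interferon-stimulated genes were 0.357%, 0.551% and 0.579% of a normal library's sum and 0.225%, 0.952% and 0.805% of a glioma library's. In glioma replicate 1, endothelial markers were lowest (0.898%), granulocyte markers summed to 0.058% with 7 of 8 above 0, and erythroid markers to 2.42%. In the other libraries the granulocyte sum was 0.00102% or less and the erythroid sum 0.542% or less. Neuronal markers summed to 0.0518% in glioma replicate 1 and to 0.00869% or less elsewhere, and fibroblast markers to 0.0216% and to 0.00413% or less. S100a9, a granulocyte gene, was at 12.84 in glioma replicate 1 and at 0 in the other 5 libraries. In glioma replicate 3, 15 of 18 microglia and macrophage markers were above 0, with a sum of 0.0998% against 0.00168% to 0.0242% in normal libraries and 0.0073% and 0.00584% in glioma replicates 1 and 2. Glioma replicate 2, where the members' sum was highest, had 4 of the 18 above 0, and Csf1r, Cx3cr1, Aif1 and Adgre1 were at 0 there. Cd3d was the only one of 11 measured T and NK cell markers above 0 anywhere, at 7.67, 4.88 and 3.25 in normal endothelium and 0, 3.82 and 0 in glioma endothelium, and Cd3e, Cd8a and Nkg7 were at 0 throughout. Of 5 B cell markers, Pax5 was above 0 in glioma replicate 1 alone (0.42).

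The highest markers of each list, and those whose groups did not overlap, were as follows. Egfl7, Pecam1 and Cldn5 led the endothelial list, and Egfl7 was lower in each glioma library (15.83, 17.07 and 15.56) than in any normal one (17.31, 17.62 and 17.62). Cx3cr1 and C1qa were among the highest of the microglial list, while Zbtb46, Xcr1 and Clec9a led the dendritic list and Csf3r, Cxcr2 and S100a8 the granulocyte list, with Csf3r wholly higher in glioma (8.26, 4.26 and 6.27 against 0, 4.13 and 2.91). Rgs5, Abcc9 and Acta2 led the mural cell list, Col1a2, Col3a1 and Col1a1 the fibroblast list, and Map2, Stmn2 and Rbfox3 the neuronal list. Mural Myh11 was wholly lower in glioma, at 0, 8.36 and 0. Cnp and Mbp were among the highest of the oligodendrocyte list. Slc1a2, Gja1 and Slc1a3 led the astrocyte list, Hba-a1, Hba-a2 and Hbb-bs the erythroid list, and Junb, Jun and Dusp1 the stress list. Gja1 and Cnp were wholly higher in glioma. Prom1, Vim and Nes led the list for glioma and neural progenitor cells, of which Sox2 was wholly higher, at 0, 0 and 1.22 in normal endothelium and 7.92, 5.53 and 8.47 in glioma endothelium. None of these markers was called by limma, and over all genes 6.91% were wholly higher and 6.37% wholly lower.

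**Figure D5:**
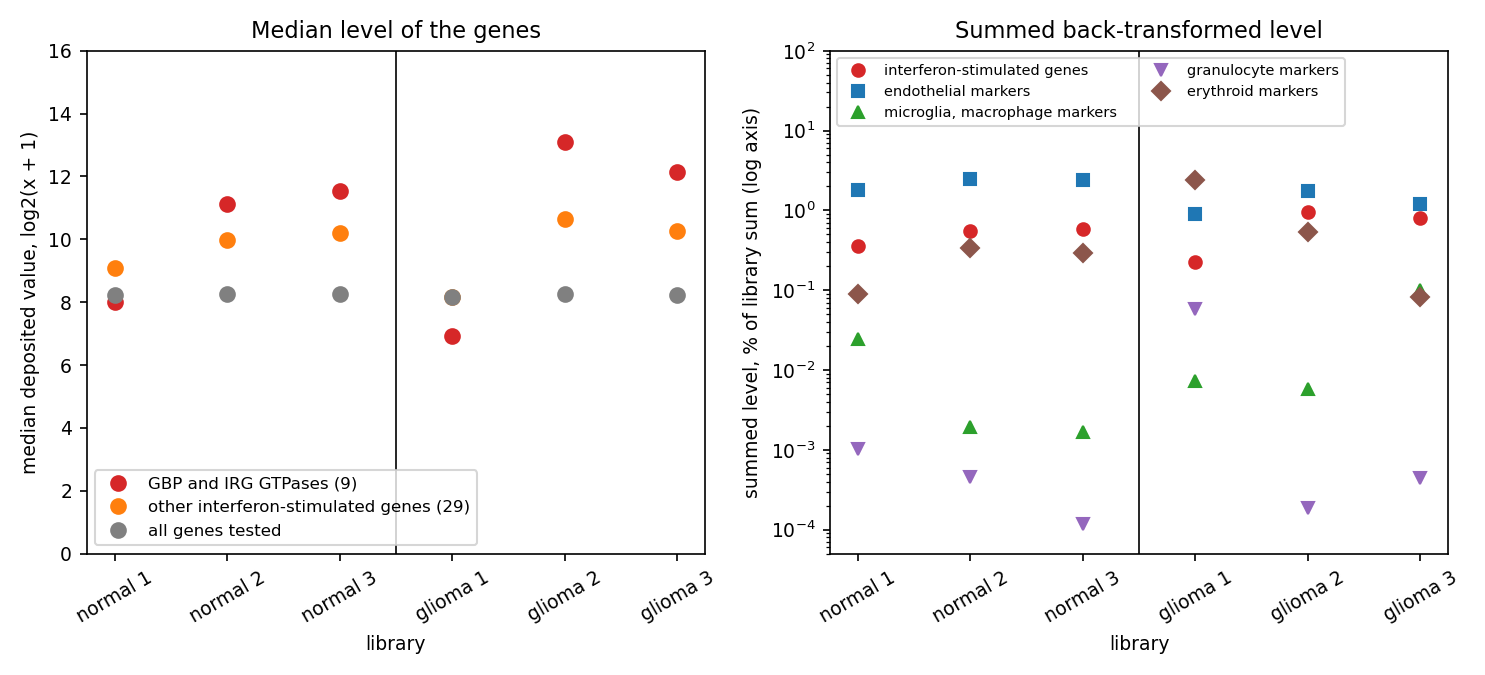
Left, median deposited value (y axis, log2(x + 1)) of the GBP and IRG GTPases, the other interferon-stimulated genes and all genes tested in each library (x axis). Right, summed back-transformed level as percent of the library sum (log axis) for the interferon-stimulated genes and 4 marker lists, with the interferon-stimulated genes between 0.225% in glioma replicate 1 and 0.952% in glioma replicate 2.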

How the data were processed

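Libraries of total RNA from sorted endothelial cells (3 normal, 3 glioma, grouped by the titles) were made with a 3′ kit, per the labels' protocols. Bowtie2, edgeR and the build mm10 are named without role, per the submitters' processing notes. The counter, annotation, strand use and normalization are not given in any source read for this work. Each deposited file holds 1 log2 value per gene symbol, read from the values as log2(x + 1) of quantile-normalized levels. Depth is unknown, so no counting interval is given.

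Genes whose back-transformed level reached 1 in 3 or more libraries (11862) entered limma (version 3.58.1, R 4.3.3) with group as the only term, a mean trend, 4 residual degrees of freedom and a Benjamini-Hochberg threshold of 0.05. The fit was tested only on simulated data with a far smaller spread than that of these libraries. That test therefore cannot show which differences the fit would detect here. Differences are glioma minus normal, and a library at 0 widens them by the gap below its lowest value. Members and lists were chosen with earlier results of these data known. Values are given for every member, and statistics for those whose groups do not overlap and for the 5 smallest p of the GTPases and of the others. Of other genes, receptors, kinases, STATs and list members whose groups do not overlap are named, with the 3 highest markers of a list. A few genes that this rule names are not reported here. Gene positions are from GENCODE M21 (GRCm38, the assembly of mm10), and promoter windows from RefSeq. The alternatives were no filter on low values, only genes above 0 in all 6 libraries, a shared floor, a pseudocount of 16, no mean trend, a replicate block and each library left out.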

Additional observations from a re-analysis of the deposited data

How the results depend on the processing

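No alternative led to a called interferon-stimulated gene. Of the settings, 8 can move a difference at all, and for the 13 members with full statistics 100 of 104 such values kept their direction. The smallest adjusted p over all settings was 0.471. The 4 others all came from leaving out normal replicate 1, where these genes were listed at 0. With each library left out in turn the difference ranged from -0.13 to 6.51 for Gbp3, from -0.50 to 4.90 for Irgm2, from -1.08 to 3.48 for Irgm1 and from -0.08 to 5.71 for Irf7. Over all genes, 15 were called without the mean trend and 0 under the other settings. The number of members whose groups did not overlap was 3 and ranged from 3 to 18 with each library left out. It was 18 without glioma replicate 1, 9 without normal replicate 1 and 5 without glioma replicate 2, where the shares of all genes wholly above and below were 15.0% and 12.1%, 14.7% and 20.7%, and 11.5% and 10.7%. The median difference of the GTPases ranged from -0.50 to 3.24 over each library left out and was 0.79 with the shared floor of 7.43, 0.80 with a pseudocount of 16 and 0.62 over the 5 genes above 0 in all 6 libraries. That of the other members ranged from -0.60 to 0.95. The replicate block cannot move a difference in this balanced design, so both medians stay at 1.62 and -0.05, and it called 0 members. Deviations of same-numbered libraries from their group means correlated at 0.13, 0.03 and 0.06. The value for replicate 1 was the highest of all pairs, while normal replicate 2 correlated more with glioma replicate 3 (0.07). With so few libraries, these values cannot show whether same-numbered libraries share more than a number. Values at 0 in normal replicate 1 and the unknown depth limit every difference that rests on them.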

Other observations

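Levels relative to the endothelial markers were computed after the values had been seen, so they describe these libraries and were not tested. The summed level of the 38 interferon-stimulated genes was 19.9%, 22.6% and 23.9% of the summed level of the 10 endothelial markers in normal replicates 1, 2 and 3. In glioma replicates 1, 2 and 3 it was 25.1%, 55.1% and 67.3%. On this scale all 3 glioma libraries lay above the normal ones. The order depended on Egfl7, the highest endothelial marker: without it the values were 43.2%, 43.7% and 46.5% in normal endothelium and 40.6%, 104.0% and 88.2% in glioma endothelium, so glioma replicate 1 was then the lowest. For the GBP and IRG GTPases alone the values were 3.38%, 6.58% and 7.41% in normal endothelium and 9.94%, 22.4% and 23.7% in glioma endothelium. The median level of the members minus that of the endothelial markers gave another order again, with -5.21 in glioma replicate 1, -4.34 in normal replicate 1 and between -3.44 and -2.91 in the other libraries.

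The members' sum rested on different genes in different libraries. Irf9, Irf1 and Iigp1 made up 59.1% of it in normal replicate 1, and Gbp3, Irf1 and Iigp1 made up 51.9% in glioma replicate 1. In the other 4 libraries the 3 highest members held 25.4% to 31.8%. Gbp3 alone held 22.5% of the sum in glioma replicate 1 and 5.39% to 10.5% in the other libraries except normal replicate 1, where it was listed at 0.

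The T cell attractants Cxcl9 and Cxcl10, which interferon induces, were chosen after their values were seen. Cxcl9 was at 10.60, 0 and 0 in normal endothelium and 6.70, 12.37 and 12.05 in glioma endothelium, and Cxcl10 at 9.93, 0 and 2.22 and at 4.37, 10.98 and 9.79. Normal replicate 1, which was low for most interferon-stimulated genes, thus held Cxcl10 at a level near those of glioma replicates 2 and 3, and Cxcl9 below both.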
